A study of Drosophila melanogaster with 6 samples.

Results

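Pigment granule trafficking was followed here through 9 Drosophila melanogaster eye colour genes, carmine (cm), garnet (g), ruby (rb), orange (or), carnation (car), deep orange (dor), light (lt), pink (p) and claret (ca). They were found on the arrays by their present symbols, and each had exactly 1 probe set naming no other gene, so the set held 9 of the 18769 probe sets that are not controls and 9 of 11953 genes. Entries that share rb and ca only as older synonyms, the genes Rbf and ncd, were not taken as members. RNA came from the heads of adult males aged 2 to 5 days and raised at 25 °C, with 3 arrays for each of 2 genotypes. Deletion males carried Sxlfp7BO, a deletion that takes out the whole Sex-lethal gene (Sxl), together with a mutation of cm and a mutation of cut (ct) as markers on its flanks. Wild-type males are labelled Oregon-R and were brothers of the deletion males from the same kind of single-pair cross, in which the mother was heterozygous for the marked chromosome and the father carried it. The labels call the arrays biological replicates and do not say how many heads went into each. They do not name the cm allele.

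Fly eye pigments are held in pigment granules, organelles related to lysosomes. The AP-3 adaptor complex sorts membrane proteins towards these granules, and it is built from the subunits encoded by g (delta), rb (beta), cm (mu) and or (sigma). The HOPS complex, which contains the products of car (Vps33A), dor (Vps18) and lt (Vps41), tethers membranes before they fuse with late endosomes and lysosomes. The gene p encodes the HPS5 protein of the BLOC-2 complex, and ca encodes a protein that activates the small GTPase Rab32. Mutations in these genes change eye colour, and several of the genes were first known by that alone. Because the males are mutant for cm by design, the arrays also ask whether transcripts of the partners of cm in AP-3 move when its own transcript does.

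Across the series the arrays were alike, with correlations of 0.994 to 0.998 on the log2 scale. Sxl transcript was close to the lowest intensities in deletion males (3.99 to 6.26 over 3 probe sets, against 88.8 to 206 in wild type), so the arrays match their labels. Markers of photoreceptors (trp, inaD and chp, 3 of 10 listed) and of neurons (elav, nSyb and brp, 3 of 4 listed) were bright by the brightest probe set of each. The remaining listed markers of these cells had no probe set of their own, and other brp probe sets were dimmer (wild-type mean down to 6.46). By contrast, 4 testis markers together gave at most 43.9 and 4 male accessory gland markers at most 26.4. Some tissue markers moved with the genotype. The summed intensity of the 3 photoreceptor markers ran from 6050 to 8278 in wild type and from 10145 to 10559 in deletion males, and that of 5 head fat body genes from 15241 to 19344 and from 9768 to 12323. The wild-type array numbered 1 had the lowest photoreceptor sum and the highest fat body sum. Whole heads were used, so fewer cells of a type and less RNA per cell cannot be told apart. The ratio of 3' to 5' signal of Act5C, a sign of RNA integrity, was 4.65 to 5.20 in wild type and 3.83 to 4.69 in deletion males, while that of GAPDH ran the other way (3.88 to 4.21 and 4.19 to 4.49).

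The mu subunit gene cm was lower in deletion males and was the 1 member called in the fit with genotype as its only term. Its intensity was 60.9, 57.0 and 62.9 on the wild-type arrays numbered 1 to 3 and 24.3, 21.9 and 28.3 on the deletion arrays. Every deletion array lay below every wild-type array, and the deletion arrays stayed above the filter on low values (an intensity of 8.35). The log2 fold change of deletion over wild type, on log2(intensity + 1), was -1.25 ± 0.10 (SE, 95% interval -1.49 to -1.01), or 2.38-fold lower, with adjusted p = 0.00178 by limma with Benjamini-Hochberg adjustment over 11261 tested probe sets. This was the 23rd largest change in size among them. In the same fit 2.60% of the probe sets passed the threshold of 0.05, 1.23% higher and 1.38% lower. The cm mutation, the ct mutation, the loss of Sxl and anything else on the marked chromosome entered these flies together. Their parts in the fall of cm, or in any other change given here, cannot be told apart. A probe set reads a short part of a transcript, and whether the mutation altered that part was not tested.

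**Figure D1:**
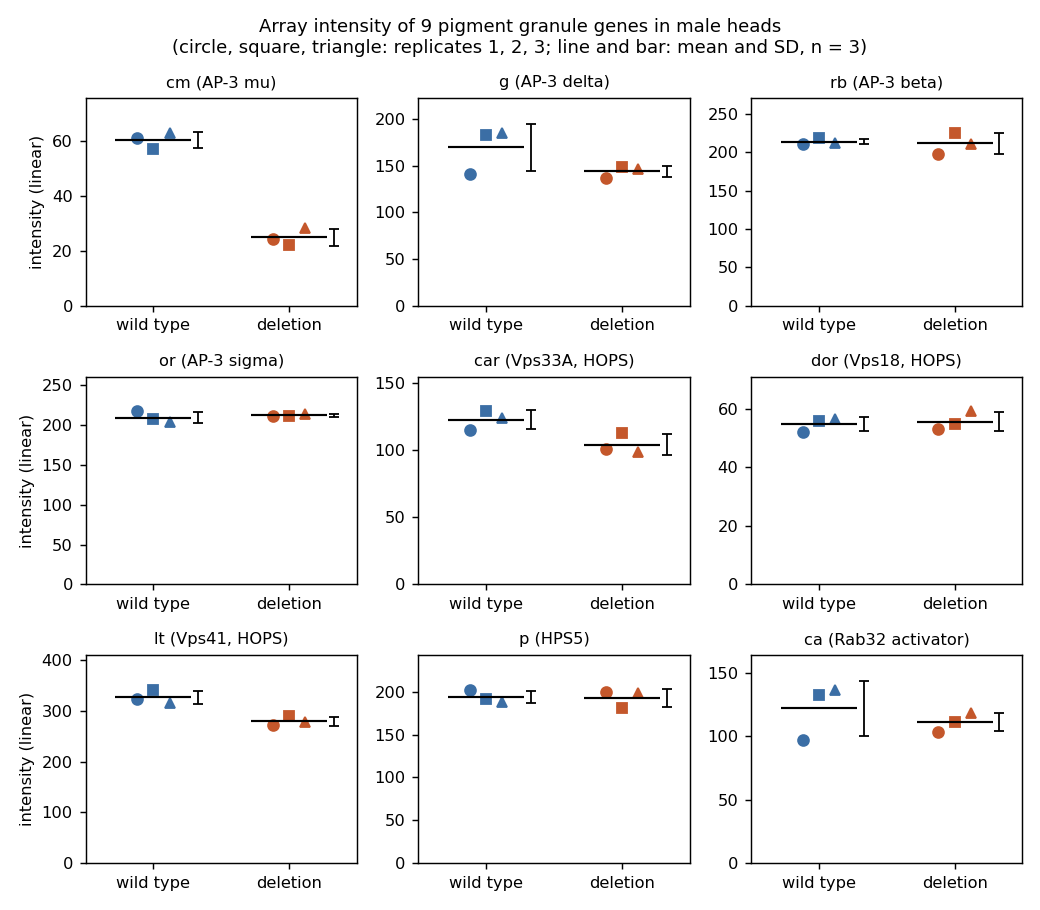
Array intensity (linear scale from 0) of the 9 genes, 1 panel each, for 3 wild-type and 3 deletion arrays. Circles, squares and triangles are replicates 1, 2 and 3, and the line and bar give the mean and SD (n = 3). The 3 deletion arrays lie below the 3 wild-type arrays for cm, car and lt, and the groups overlap in the other 6 panels.

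None of the AP-3 partners of cm passed the test in that fit or with the block described below. The beta subunit gene rb had 211, 218 and 212 in wild type and 198, 225 and 211 in deletion males. The sigma subunit gene or had 217, 207 and 204 against 211, 212 and 214. For both genes the groups overlapped and the means differed by less than the SD of the more variable group. The log2 fold change was -0.02 (95% interval -0.16 to 0.13) for rb and 0.02 (-0.10 to 0.14) for or, with limma adjusted p = 0.924 and 0.906.

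The delta subunit gene g was less even. Its wild-type arrays read 141, 183 and 185, and its deletion arrays 137, 148 and 147, so the wild-type array numbered 1 fell among the deletion arrays while the other two lay above all 3. Within pairs of equal number g was lower in 3 of 3, by 0.04, 0.30 and 0.34 on the log2 scale. The log2 fold change of -0.23 ± 0.11 (SE, 95% interval -0.47 to 0.02) did not pass the test (limma adjusted p = 0.332, or 0.115 with the replicate number as a block). This one array decided the call: without it g fell by 0.35 on the log2 scale (limma adjusted p = 0.0259). That array also had the lowest photoreceptor marker sum and the highest fat body marker sum, and the part of this in the value of g was not tested.

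The difference between cm and its partners was measured directly. The mean log2 value of g, rb and or was 7.62 ± 0.06 (SD, n = 3) in wild type and 7.55 ± 0.05 in deletion males, a difference of -0.08 ± 0.05 (SE). With single arrays left out this difference ran from -0.11 (without wild-type replicate 1) to -0.05 (without deletion replicate 1). Within pairs of equal number it was -0.06, -0.07 and -0.09, lower in 3 of 3 pairs. By gene, g was lower in 3 of 3 pairs, rb in 2 of 3 and the gene or in 1 of 3. Within each array the value of cm minus that mean was -1.60, -1.81 and -1.65 in wild type and -2.83, -3.07 and -2.69 in deletion males. The gap widened by 1.18 ± 0.13 (SE) on the log2 scale, and the groups lay well apart. Taken singly, cm fell relative to each of the other 8 members, by 1.01 (against car) to 1.27 (against dor) on the log2 scale. Each of these 8 differences had an exact two-sided permutation p = 0.1, also 0.1 after Benjamini-Hochberg adjustment, which is the smallest p that 3 arrays against 3 allow and cannot pass 0.05. The 95% intervals of all 8 members from the limma fit lay above the log2 fold change of cm.

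Of the 3 HOPS genes, lt and car had lower values on every deletion array and dor did not, and the differences between the 3 genes were not tested. The gene lt had 323, 341 and 315 in wild type and 271, 289 and 277 in deletion males. All deletion arrays lay below all wild-type arrays, by 1.17-fold on average. Its log2 fold change of -0.22 ± 0.05 (SE) missed the threshold in the limma fit (adjusted p = 0.0757). With the replicate number as a block the same change passed (limma adjusted p = 0.0326), and lt was lower in 3 of 3 pairs of equal number, by 0.18 to 0.25 on the log2 scale.

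The gene car, whose product Vps33A is the Sec1/Munc18-like subunit of HOPS, had 115, 129 and 124 in wild type and 101, 113 and 98.4 in deletion males. Here too the groups did not overlap, though the highest deletion array came close to the lowest wild-type array. The log2 fold change was -0.24 ± 0.08 (SE, 95% interval -0.42 to -0.06), with limma adjusted p = 0.162, or 0.0705 with the block. By the array maker's naming, the probe set of car is of a kind that may match transcripts of more than 1 gene, as are those of AP-1gamma, AP-2mu and Rab32 below. The gene dor had 51.9, 55.7 and 56.4 in wild type and 53.0, 54.7 and 59.1 in deletion males. Its groups overlapped, and the log2 fold change was 0.02 (95% interval -0.15 to 0.20, limma adjusted p = 0.92).

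Among the remaining HOPS subunits, Vps11, a core subunit, had 199 ± 8.60 (SD, n = 3) in wild type and 173 ± 8.93 in deletion males, with a log2 fold change of -0.20 ± 0.06 (SE, limma adjusted p = 0.15, 0.0776 with the block). Vps16A (-0.05) and Vps39 (-0.02) had log2 fold changes close to 0. Of the 6 HOPS subunits, 5 had a negative log2 fold change and the 3 genes lt, car and Vps11 had groups that did not overlap. None passed the threshold with limma, 3 had p under 0.05 before adjustment, all lower, and lt alone passed with the block. Over all tested probe sets, 12.0% had groups that did not overlap with the deletion arrays lower, 17.6% had p under 0.05 before adjustment (9.04% lower), and 7.40% passed with the block (3.98% lower).

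The genes p and ca did not pass either. The HPS5 gene p had 203, 191 and 189 in wild type and 200, 181 and 198 in deletion males, a log2 fold change of -0.01 (95% interval -0.15 to 0.14, limma adjusted p = 0.968). These values were intermingled. For ca, wild type read 97.4, 133 and 137 and deletion males 104, 111 and 118. As with g, the wild-type array numbered 1 was the lowest of its group, 0.46 below the mean of the other two on the log2 scale for ca and 0.38 for g. The log2 fold change of ca was -0.12 ± 0.13 (SE, 95% interval -0.42 to 0.18, limma adjusted p = 0.696), and without that array it was -0.28 (limma adjusted p = 0.0873).

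**Figure D2:**
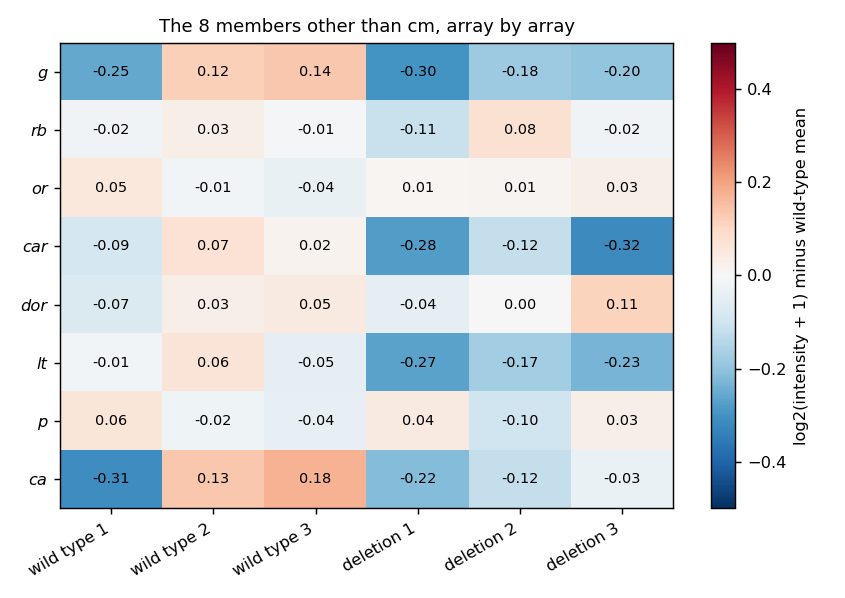
Each cell gives log2(intensity + 1) minus the wild-type mean of the gene, for the 8 members other than cm (rows) on the 6 arrays (columns), with blue below and red above the wild-type mean. The genes g and ca are low on wild-type array 1 (-0.25 and -0.31). On the 3 deletion arrays g (-0.30, -0.18 and -0.20), car (-0.28, -0.12 and -0.32) and lt (-0.27, -0.17 and -0.23) are below 0. So is ca (-0.22, -0.12 and -0.03), while rb, or, dor and p run from -0.11 to 0.11.

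The members were also compared with each other by profile across the 6 arrays. By root mean square distance between log2 profiles centred on their own means, g was nearest to ca (0.067) and ca to g, lt and car were nearest to each other (0.057), and or and p were nearest to each other (0.047). The subunits of AP-3 were thus not each other's nearest members, apart from rb, whose nearest was or (0.066). The member nearest to cm was lt, at a distance of 0.53. These distances describe 6 arrays that share a genotype contrast, and no test was made on them. Genes that hardly change lie near each other by this measure. No distances between pairs of genes outside the set are given for comparison, so grouping of the members is not shown.

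As a set, the 8 members other than cm had no call with limma, where 2.60% of all tested probe sets were called. Before adjustment, 2 of them, car and lt, both lower, had p under 0.05, against 17.6% of all tested probe sets in either direction and 9.04% lower. With the block 1 of 8, lt, was called lower, against 7.40% of all in either direction and 3.98% lower. Their groups did not overlap with the deletion arrays lower in 2 cases, against 12.0% of all tested probe sets, and in 0 cases with the deletion arrays higher, against 12.1%. Of their log2 fold changes 6 were negative and 2 positive (range -0.24 to 0.02, median -0.07), while the median over all tested probe sets was 0.00 and 51.3% were positive. Read against these shares, nothing particular to the members is shown. Changes of the size seen in g, car and lt are small for this design: in simulated arrays, 22.4% of 49 probe sets changed by 1.25-fold were called, and 95.8% of 48 changed by 2-fold. The changes of g, car and lt (1.17 to 1.18-fold) were smaller than any simulated, and the simulated noise was independent between probe sets.

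Members with lower values lay both on the X and on autosomes. The X carries 5 of the 9, cm, rb, dor, g and car, as it does Sxl. Counted in protein-coding genes, cm lies 9 genes from Sxl, with rb 259 and dor 514 genes away on the same side and g 646 and car 1265 away on the side of ct. Of the 4 autosomal members, lt (on 2L) had a log2 fold change close to that of the X-linked car and g, and or (2R), p and ca (both 3R) were not called with or without the block. Coordinates are left out because no source used here names the genome build of the array design.

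The nearest genes tested on each side of cm were not called, and those between them and cm on the Sxl side, sloth1 and sloth2, have no probe set of their own here. Of the 10 protein-coding genes on each side 15 were tested and 5 were called, against 2.60% of all tested probe sets. The 5 include Sxl, which the deletion takes out, and its neighbour CG4615. The count is therefore not read as an excess of changed genes around cm. The gap junction gene Inx2, next to cm on the side away from Sxl, had 631 ± 47.0 (SD, n = 3) in wild type and 608 ± 34.0 in deletion males (log2 fold change -0.05, limma adjusted p = 0.773). On the other side the nearest tested gene, CG3032, had 16.1 ± 1.42 and 14.3 ± 1.85 (-0.17, adjusted p = 0.511). Both pairs of values overlapped within their SD. Further out, bou, 3 genes from cm, fell from 158 ± 13.3 to 117 ± 9.19 (-0.43, limma adjusted p = 0.0448). CG4586, 6 genes away on the same side, rose from 9.67 ± 0.612 to 15.4 ± 1.38 (0.62, limma adjusted p = 0.0206), and CG4593, on the Sxl side, rose by 0.54 (limma adjusted p = 0.0448). Sxl and its neighbour CG4615 at the far end of this stretch fell by 4.97 and 4.63 on the log2 scale. The 10 other tested neighbours were not called. The calls of bou, CG4586 and CG4593 each depended on single arrays: bou lost its call without any one array, CG4593 without any one but wild-type replicate 1, and CG4586 without replicates 2 or 3 of either genotype (limma adjusted p up to 0.17). The calls of bou and CG4593 were also lost without the intensity trend (0.0731 and 0.0619), that of bou with quantile normalization (0.0591), and that of CG4593 without the filter (0.0526) or without both arrays numbered 1 (0.0842).

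**Figure D3:**
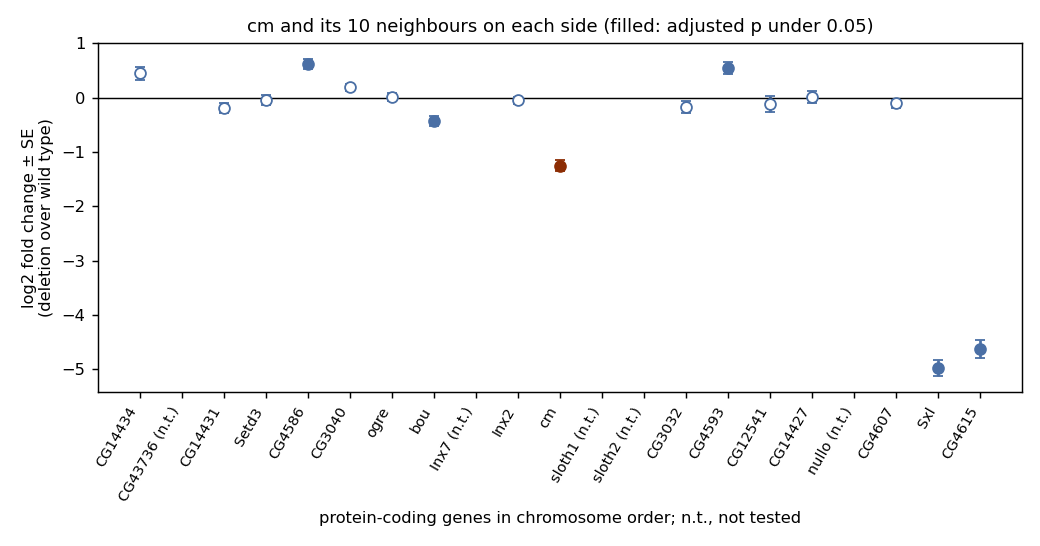
Log2 fold change of deletion over wild type (limma, error bars SE) for cm and the 10 protein-coding genes on each side in chromosome order. Filled points passed an adjusted p of 0.05, and n.t. marks genes with no tested probe set of their own. The point for cm (-1.25) stands apart from Inx2 (-0.05) and CG3032 (-0.17), and Sxl and CG4615 lie lowest.

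Genes were also ranked by how near their profile lay to that of cm. Among 8669 other genes, each by its brightest tested probe set, the 3 nearest in root mean square distance over the 6 arrays were the glycosyltransferase gene Ugt37A3 (0.067), the myoblast fusion gene rost (0.12) and the cuticle gene TwdlG (0.16), all autosomal. Ugt37A3 read 74.0, 77.4 and 75.1 in wild type and 30.8, 28.3 and 33.7 in deletion males. The likeness rests on the step between genotypes, which cm shares with every gene that fell by a similar amount. No other member did, so the ranking says nothing further about the members.

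Of the other adaptor subunits, 1 was called. AP-1gamma, the large gamma subunit of the AP-1 adaptor of the trans-Golgi and endosomes, fell from 64.0, 66.9 and 63.1 in wild type to 46.7, 49.1 and 50.5 in deletion males. The groups were well separated, with a log2 fold change of -0.40 ± 0.07 (SE) and limma adjusted p = 0.0305. The call was lost when any single array other than wild-type replicate 1 was left out (limma adjusted p up to 0.118), and without both arrays numbered 1 (0.0649). It is X-linked, 194 protein-coding genes from Sxl on the side of ct. Its AP-1 partners AP-1sigma (-0.05) and AP-1-2beta (-0.04) had log2 fold changes near 0 and were not called. Of 7 listed AP-1 and AP-2 genes 6 had a probe set of their own, 1 was called lower and none higher (median log2 fold change -0.07). The AP-2 subunits AP-2alpha (-0.08), AP-2mu (0.07) and AP-2sigma (-0.09) had limma adjusted p of at least 0.413, though the groups of AP-2alpha and AP-2mu did not overlap. AP-2alpha had 483, 498 and 531 in wild type and 475, 468 and 482 in deletion males, and AP-2mu had 472, 445 and 475 against 491, 478 and 489. Over all tested probe sets 12.0% had groups apart in the lower direction and 12.1% in the higher.

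The other genes of granule formation had no call with limma, and 2 rose with the block. Of 21 listed genes, 16 had a probe set of their own, and all 16 were tested (median log2 fold change -0.02, 7 positive and 9 negative). At unadjusted p under 0.05 there were 4, namely Rab32, mv, Pldn and Vps11, against 17.6% of all tested probe sets, and 3.42% of all were called higher with the block. Rab32, the GTPase activated by the product of ca, read 1410, 1824 and 1861 in wild type and 2007, 2142 and 2083 in deletion males. All deletion arrays lay above the wild-type arrays, of which number 1 was again the lowest. The log2 fold change was 0.30 ± 0.10 (SE), with limma adjusted p = 0.175, or 0.0413 with the block. Without wild-type replicate 1 it was 0.17 (limma adjusted p = 0.0668), and without both arrays numbered 1 it was 0.20 (0.0471). The mauve gene mv, the fly counterpart of the lysosome size regulator LYST, had 138 ± 13.8 (SD, n = 3) and 176 ± 6.12 (0.35 ± 0.08 SE, limma adjusted p = 0.0694, or 0.0457 with the block). Its second probe set was near the lowest intensities and was not tested. Pldn, the BLOC-1 subunit pallidin, had 35.9 ± 4.43 and 44.4 ± 3.15 (0.30 ± 0.11 SE, limma adjusted p = 0.19, 0.166 with the block). Thus ca and its target Rab32 had log2 fold changes of opposite sign, and the difference between them was not tested.

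Genes of pigment making and transport, whose products include cargo of the granule pathway, were mostly higher. Of 13 listed, 10 had a probe set of their own and 9 were tested, with 8 positive and 1 negative (median log2 fold change 0.24). Against a background of 1.23% called higher, 2 were called, se and cl. The gene se rose from 485 ± 39.4 to 740 ± 46.8 (SD, n = 3, log2 fold change 0.61, limma adjusted p = 0.00847). The gene cl rose from 804 ± 9.06 to 956 ± 34.3 (0.25, limma adjusted p = 0.0305). The call of se was lost without deletion replicate 3 (limma adjusted p = 0.0576), and that of cl without any single array but wild-type replicate 1 (up to 0.128) and without the intensity trend (0.0892). The ABC transporter gene bw, which imports red pigment precursors, rose with the block (0.43, limma adjusted p = 0.0762, or 0.0159 with the block), where 3.42% of all probe sets were called higher. Its other probe set had overlapping groups and was not called (0.42, limma adjusted p = 0.185, or 0.0687 with the block). The GTP cyclohydrolase gene Pu had 0.24 (limma adjusted p = 0.119, 0.085 with the block), or 0.14 without both arrays numbered 1. The photoreceptor markers trp (0.55), inaD (0.53) and chp (0.38) were higher on the same arrays, and their part in these values was not tested.

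**Figure D4:**
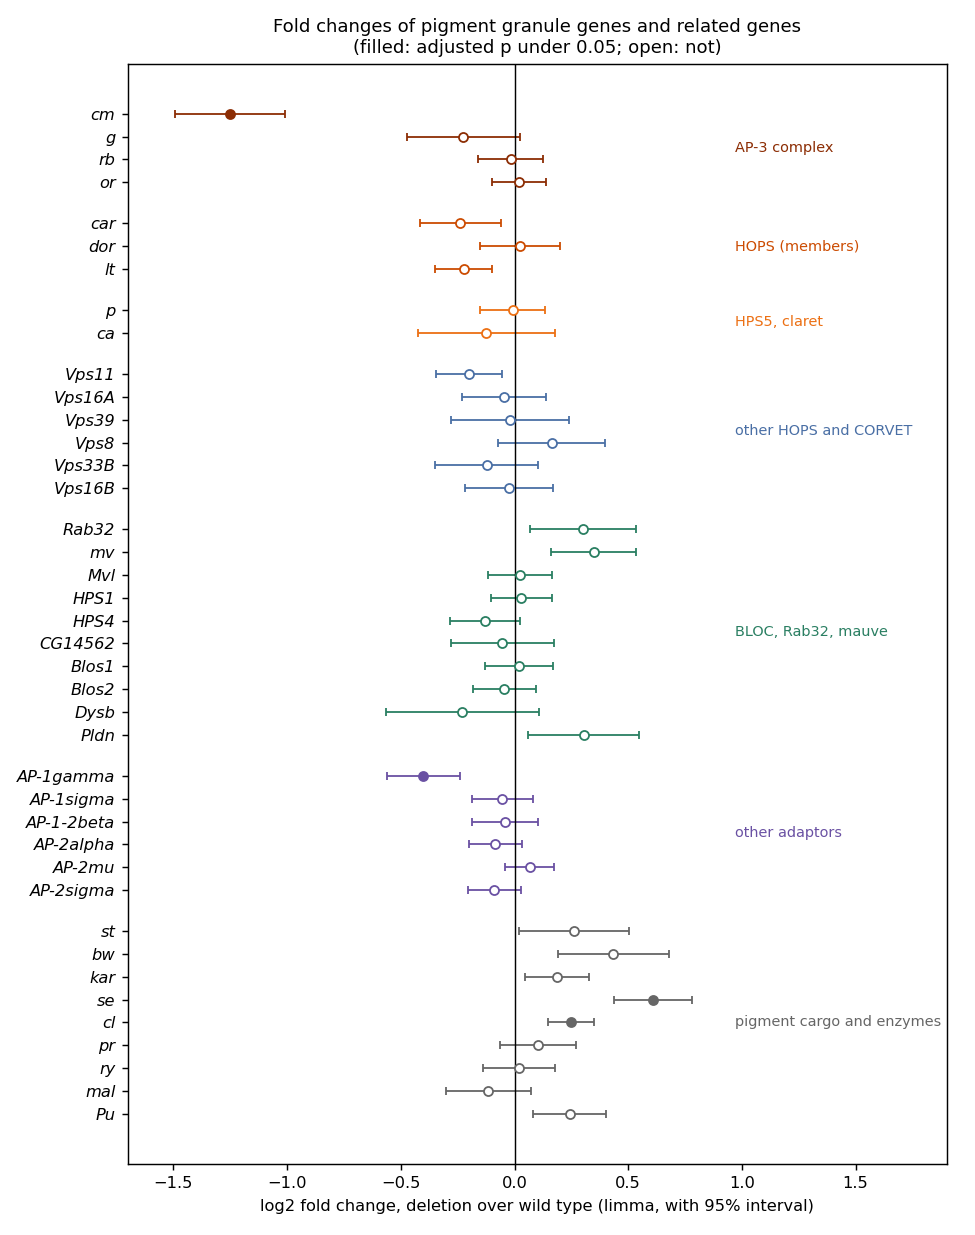
Log2 fold change of deletion over wild type (points, limma) with its 95% interval for the 9 members (top 3 groups) and for related genes, each by its brightest probe set. Filled points passed an adjusted p of 0.05. Of the members cm alone is filled (-1.25), and AP-1gamma (-0.40), se (0.61) and cl (0.25) are filled among the related genes.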

How the data were processed

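The authors deposited 1 linear intensity per probe set and array from Affymetrix arrays, and no source used here states how it was made. Array medians of 14.3 to 14.8 differed by 0.05 on the log2 scale, under the bound of 0.2, so no further normalization was applied. R 4.3.3 and limma 3.58.1 were used on log2(intensity + 1), which understates changes of dim probe sets, with an intensity trend and genotype as the only term, two-sided. Without 183 controls, 11261 of 18769 probe sets passed a filter on the mean (40th percentile, or 8.35 in intensity), all 9 members among them, and p was adjusted over these by Benjamini-Hochberg. The members' lowest intensity was 21.9. No background was measured, and precision is limited by the 6 arrays.

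By the platform annotation 13647 probe sets name a single gene, 402 name several and 4720 name none. A RefSeq gene table (Release 6 plus ISO1 MT) updated 13544 by Entrez identifier and 91 by name, and gave gene order. A gene counts by its brightest probe set. Members and lists were chosen with earlier results of these data known. The rule named the members, Sxl, up to 4 genes of smallest p from each related list (granule, adaptor, pigment) and the 3 genes nearest to cm. The other HOPS and AP-1 subunits, the neighbours of cm and the tissue markers were named after their values were seen.

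Deviations from the genotype means correlated between arrays of equal number at 0.216, 0.248 and 0.114 (at most 0.0573 otherwise), above the bound of 0.1 that was set for treating numbers as pairs. The labels give no meaning to a number, and p with this block may be too low. On simulated arrays with 200 changed probe sets, 5 of 141 calls over 11261 were false. The simulated noise was drawn independently for each probe set and array. Real arrays of equal number share deviations, so these rates may not carry over to them. Alternatives covered the filter, pseudocount, normalization, variance model, array weights, block, threshold, probe set choice and each array.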

Additional observations from a re-analysis of the deposited data

How the results depend on the processing

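The count of 1 called member, cm, was 2 at a threshold of 0.1, under the replicate block and under array weights (lt joining cm each time), and 2 without both arrays numbered 1, a setting chosen after the data were seen (g joining). Calls over all 11261 tested probe sets rose too, from 293 to 833 with the block, 572 with array weights and 451 without both arrays numbered 1. The total at a threshold of 0.1 is not given here. The gain of lt or g is therefore not read as particular to the members. The member count was 0 with the filter at the 60th percentile, which removes cm from the tested probe sets. Leaving out single arrays gave 1 to 2, with 2 (cm and g) without wild-type replicate 1, where 432 of all tested probe sets were called. The fall of cm passed in all 16 alternatives in which it was tested, with log2 fold changes of -1.35 to -0.90, the smallest with a pseudocount of 16, which shrinks changes by its construction, and with limma adjusted p of 0.000806 to 0.012. The replicate block changed the call of no member other than lt. The change of lt was -0.22 (limma adjusted p = 0.0326) with the replicate block and -0.23 (0.0427) with array weights. That of g was -0.32 (0.0369) without both arrays numbered 1. Members near 0 changed sign without passing the threshold: the log2 fold change of the gene p was 0.0023 with array weights, and that of rb was 0.020 without both arrays numbered 1. With single arrays left out, rb ran from -0.064 to 0.029, the gene or from -0.00093 to 0.045, dor from -0.021 to 0.056 and the gene p from -0.034 to 0.038. The cause of these changes was not tested. Over all probe sets the 293 calls were 128 without the intensity trend and 54 to 432 with single arrays left out. Ugt37A3, rost and TwdlG kept their calls in all 16 alternatives run on them. They were picked on these same arrays for nearness to the large step of cm, so this is no separate support. Vps11 was not called in any of its 16 alternatives (log2 fold change -0.23 to -0.16). Vps16A, Vps39, AP-1sigma, AP-1-2beta and the tissue markers were not followed across the alternatives.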
